A study of Mus musculus with 6 samples.

Results

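The genes described here are 35 members of the sterol and fatty acid synthesis pathways, measured in 3 clones of mouse embryonic stem (ES) cells that carry an inducible human GTF2IRD2 coding sequence. They were taken by gene symbol from the annotation of the array, and 34 of the 35 had a probe set, a group of probes for 1 transcript, that carries their symbol alone, out of 18193 genes with such a probe set. No probe set was assigned to Acat2 alone, so Acat2 has no value here. Of the 34 measured genes, 17 encode enzymes of the sterol branch, 11 belong to fatty acid synthesis and modification, and 6 are regulators or sterol transfer proteins. The members were chosen by pathway, after differences between induced and uninduced cells had been noticed for genes of cholesterol synthesis on these arrays, so that this comparison is given as a description of them.

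Induced cells of clones A3, A4 and A5 had been kept for 24 h without tetracycline, and uninduced cells of the same clones (0 h) in medium with tetracycline. All groups carry the same FLAG-tagged transgene at the ROSA26 locus of the EBRTcH3 (EB3) line, under a promoter that tetracycline represses and that leaves a basal expression. Each clone in each condition was measured on 1 Affymetrix Mouse Genome 430 2.0 array, 3 arrays per condition and 2 per clone, and each clone is a single cell line derived on its own. Values are log2 expression after robust multiarray average (RMA) processing, where a difference of 1 is a doubling.

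The arrays had medians of 5.03 to 5.07. The 10 ES cell markers averaged 11.80 to 11.85 on every array, against 4.85 to 5.11 for 10 markers of primitive and parietal endoderm, 4.42 to 4.48 for 10 of fibroblasts and feeder cells, and 4.49 to 4.55 for the 9 measured of 10 markers of adipocytes and hepatocytes. The mouse Gtf2ird2 probe set read 6.38, 6.51 and 6.37 in induced A3, A4 and A5, and 6.33, 6.04 and 6.36 uninduced (difference 0.18 ± 0.10 SE, limma adjusted p = 1.00). Whether this mouse probe set detects the human transgene is not given in the sources used here, so it does not check the induction. By RT-PCR, the paper reports more transgene RNA after induction than before it in each of these clones, with the highest level in A3.

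Sterols and fatty acids are built from the same precursor, acetyl-CoA, and both branches are controlled by the sterol regulatory element-binding proteins (SREBPs). When sterols are scarce, the escort protein SCAP carries SREBP from the endoplasmic reticulum to the Golgi, where it is cut and its released part enters the nucleus and activates genes of both branches. When sterols are plentiful, the INSIG proteins hold SCAP and SREBP in the endoplasmic reticulum. SREBP2, encoded by Srebf2, acts mainly on sterol genes, and the main liver form of SREBP1, encoded by Srebf1, mainly on fatty acid genes.

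Promoter sequence is shown for 6 members. They are Cyp51, a sterol enzyme with high induced values, Hmgcs1, the first measured sterol enzyme, and the feedback regulator Insig1. Beside these stand 3 fatty acid genes, Fasn, Acss2 and Fads2. The 250 bases before each RefSeq start site (GRCm38.p6) run 5′ to 3′ on the gene's own strand, at chr5:4104698-4104947 for Cyp51, chr11:120824548-120824797 for Fasn and chr19:10101504-10101753 for Fads2 (minus strand) and at chr13:119690101-119690350 for Hmgcs1, chr5:28071162-28071411 for Insig1 and chr2:155517793-155518042 for Acss2 (plus strand). Capitals mark every match, on either strand, to CCAAT (the CCAAT box, bound by NF-Y), GGGCGG (the Sp1 box), CACGTG (an E-box) or TCACNCCAC (the core of a sterol regulatory element). On the other strand the first reads ATTGG and the second CCGCCC.
Cyp51: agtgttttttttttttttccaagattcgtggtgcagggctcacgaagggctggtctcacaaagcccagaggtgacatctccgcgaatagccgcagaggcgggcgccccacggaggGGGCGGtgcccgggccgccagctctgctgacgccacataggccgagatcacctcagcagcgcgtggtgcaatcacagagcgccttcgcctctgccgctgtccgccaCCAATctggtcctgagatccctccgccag
Hmgcs1: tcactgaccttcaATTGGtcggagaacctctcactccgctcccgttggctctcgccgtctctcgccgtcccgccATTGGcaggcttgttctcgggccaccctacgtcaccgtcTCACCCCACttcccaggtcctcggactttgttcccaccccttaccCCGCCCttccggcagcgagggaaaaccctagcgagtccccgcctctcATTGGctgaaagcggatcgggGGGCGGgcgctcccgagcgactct
Insig1: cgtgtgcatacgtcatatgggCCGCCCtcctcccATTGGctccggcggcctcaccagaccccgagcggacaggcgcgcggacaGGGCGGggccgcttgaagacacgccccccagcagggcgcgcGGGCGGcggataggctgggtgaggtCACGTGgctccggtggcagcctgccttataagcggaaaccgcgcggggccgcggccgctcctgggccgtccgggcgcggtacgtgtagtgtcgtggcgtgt
Fasn: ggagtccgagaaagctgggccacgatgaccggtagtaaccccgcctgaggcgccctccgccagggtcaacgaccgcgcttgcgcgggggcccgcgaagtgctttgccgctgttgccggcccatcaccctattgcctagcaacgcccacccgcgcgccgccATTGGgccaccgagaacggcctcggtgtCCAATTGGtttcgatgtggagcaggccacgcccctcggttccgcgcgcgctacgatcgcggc
Acss2: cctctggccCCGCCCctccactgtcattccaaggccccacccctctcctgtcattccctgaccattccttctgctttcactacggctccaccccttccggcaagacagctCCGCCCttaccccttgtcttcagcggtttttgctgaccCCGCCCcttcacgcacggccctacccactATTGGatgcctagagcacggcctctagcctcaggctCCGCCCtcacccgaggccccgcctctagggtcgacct
Fads2: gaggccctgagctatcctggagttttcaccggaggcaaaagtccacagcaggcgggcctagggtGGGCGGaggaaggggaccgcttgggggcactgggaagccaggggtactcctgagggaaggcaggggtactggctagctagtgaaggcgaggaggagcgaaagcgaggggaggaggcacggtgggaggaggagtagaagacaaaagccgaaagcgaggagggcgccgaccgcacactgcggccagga

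RefSeq gave a window of 250 bases before to 50 after the start site for 28 of the 35 members. A gene with several start sites has several windows and counts as a match where any of them matches. A CCAAT box stood in 14 of 15 sterol enzyme genes (93.3%), in 4 of 5 regulators (80%) and in 4 of 8 fatty acid genes (50%), against 42.8% of 9645 genes with a window and a mean expression of at least 5 and 41.1% of all 27025 genes. Windows per gene averaged 1.20 for sterol enzymes, 2.00 for regulators and 1.12 for fatty acid genes, against 1.28 for expressed genes. An Sp1 box was found in 14 of 15 sterol enzymes (93.3%), in all 5 regulators with a window and in 4 of 8 fatty acid genes (50%), against 68.5% of the expressed genes. In the windows printed above, Insig1 has an E-box 101 bases before its start. Windows of Scap, Hsd17b7, Sc5d and Dhcr7 hold an E-box as well, and 0 of 8 fatty acid genes do, against 11.8% of expressed genes. The sterol element core was found in Hmgcs1 alone, 137 bases before its start, against 1.45% of expressed genes. A CCAAT box was found 29 bases before the start of Cyp51, and 3 overlapping or nearby matches were found between 90 and 59 bases before that of Fasn. Fads2 has 1 Sp1 box and no CCAAT box in its window. These matches describe letters in a short window, since no binding was measured, and no match says only that the letters are not in this window.

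**Figure D1:**
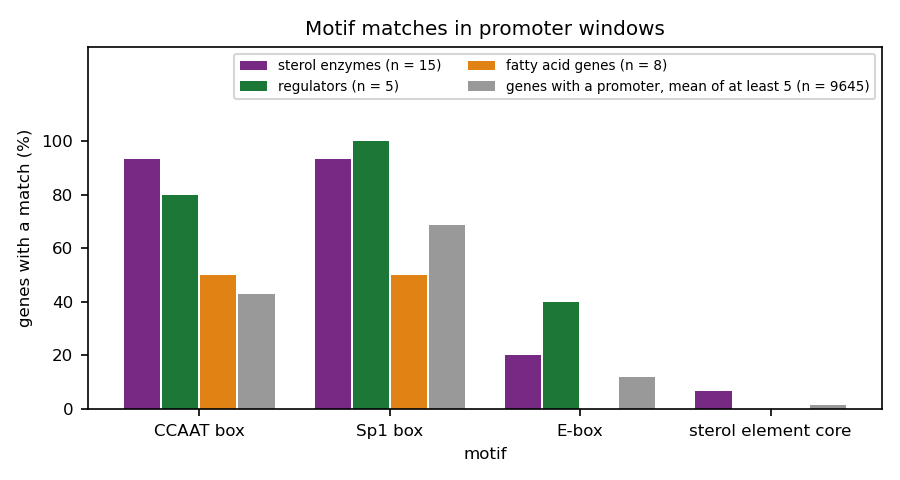
Share of genes (%) with a match to each of 4 motifs in the window of 250 bases before to 50 after the start site, for sterol enzymes, regulators, fatty acid genes and all genes with a mean of at least 5. The CCAAT box stands in 93.3% of sterol enzyme genes and in 50% of fatty acid genes, against 42.8% of expressed genes.

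Induced and uninduced cells were compared first, to describe whether the branches had moved together after 24 h of induction. Sterol enzymes had slightly higher values in induced cells and fatty acid genes were divided. The median difference, induced minus uninduced, was 0.06 over the 17 sterol enzymes, 15 of them with a higher mean in induced cells, and 0.08 over the 6 regulators, 5 of them higher. Over the 11 fatty acid genes the median was 0.01, with 6 higher and 5 lower. Genes with a mean of at least 5, of which there were 11927, had a median of 0.00034, with 5989 higher and 5938 lower. None of these differences passed the test across all 45037 probe sets (limma, two-sided, Benjamini-Hochberg adjustment, threshold 0.05). It called 0 members and 0% of all probe sets, with 1 member, 430 of 18193 genes and 1404 probe sets at an unadjusted p under 0.05. With the clone as a block, limma called 0 members as well, with 4 members and 855 of 18193 genes at an unadjusted p under 0.05, and the smallest adjusted p of any member was 0.843.

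The intervals limit how large a difference could have been. Among the 34 members the 95% intervals of the difference reached from −0.48 at the lowest bound to 0.57 at the highest, so that none held a doubling or a halving between conditions. Half-widths of the intervals were 0.16 to 0.33 for sterol enzymes, 0.18 to 0.34 for regulators and 0.15 to 0.50 for fatty acid genes. These intervals, and the SE values below, come from the fit without the clone, so they also hold differences between clones. For Fads2, with the widest interval, the SE was 0.22, and 0.07 with the clone as a block. For Acly, with the narrowest, it was 0.07 in both fits. Single arrays moved the medians. Without the uninduced A3 array the sterol, regulator and fatty acid medians were 0.0061, 0.02 and −0.10, and without the induced A3 array 0.12, 0.14 and 0.07. The sterol median was 0.10 without uninduced A4 and 0.03 without induced A5, and the regulator median 0.03 without induced A4.

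The separation between the branches differed among the clones. In A5 the sterol median was 0.14 and the fatty acid median −0.02, a gap of 0.15, while the gap was 0.03 in A3 (0.0038 and −0.03) and 0.02 in A4 (0.05 and 0.03). Higher induced values were found in clones A3, A4 and A5 for 9, 12 and 16 of the 17 sterol enzymes and for 5, 7 and 5 of the 11 fatty acid genes. Each clone gave 1 pair of arrays, so that the differences among clones were not tested. The poly-A spikes, control RNAs added during labelling, were also higher on the induced arrays (differences of 0.33, 0.09 and 0.50 for clones A3, A4 and A5), and 18S ribosomal RNA differed by −1.30, 1.10 and −3.81. The part of labelling and RNA quality in the branch values was not tested. Without the uninduced A5 array the gap was −0.0032, and without both A4 arrays it was 0.15.

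**Figure D2:**
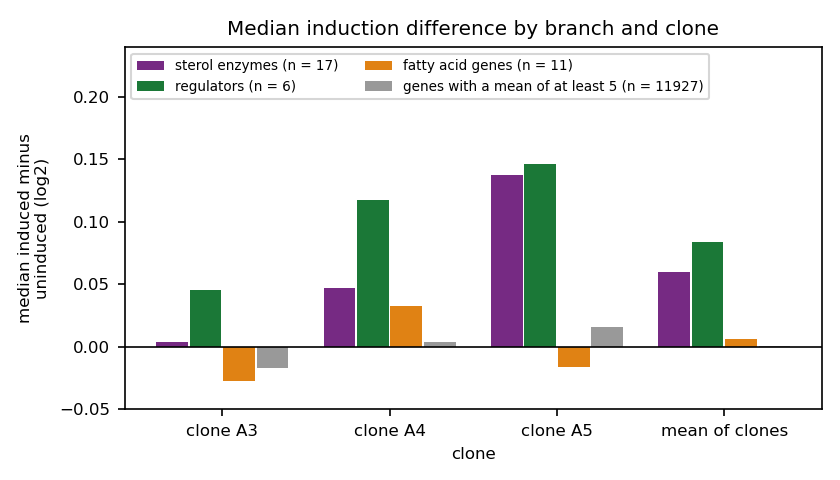
Median difference, induced minus uninduced (log2), over sterol enzymes, regulators, fatty acid genes and genes with a mean of at least 5, in each clone and in the mean of the 3 clones, with no error bars since each bar is a median over genes. Sterol enzymes lie at 0.0038, 0.05 and 0.14 in A3, A4 and A5 and fatty acid genes at −0.03, 0.03 and −0.02.

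Along the sterol branch, the highest differences lay in the steps around lanosterol. Cyp51, the demethylase of lanosterol, read 7.81, 7.99 and 7.83 in induced A3, A4 and A5, against 7.53, 7.78 and 7.56 in the uninduced clones. All 3 induced arrays of Cyp51 lay above all 3 uninduced arrays, as was so for 3.04% of genes with a mean of at least 5, and it was the 1 member of the list in that position. Its difference was 0.25 ± 0.09 (SE, 1.19-fold, limma adjusted p = 1.00), and a second probe set of the gene differed by 0.26. Msmo1, the monooxygenase that takes the next methyl groups off the sterol, had 9.06, 9.29 and 9.28 in induced and 8.91, 9.16 and 9.03 in uninduced cells. The groups overlapped, while within each clone the induced array was higher, by 0.15, 0.13 and 0.25 in A3, A4 and A5, a mean of 0.18 ± 0.10.

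Nsdhl, the dehydrogenase that acts with Msmo1, gave 8.88, 9.02 and 9.07 in induced cells and 8.80, 9.01 and 8.84 in uninduced cells. Its groups overlapped, and the mean difference was 0.11 ± 0.09 with most of it in A5 (0.23). Sqle, squalene epoxidase, which starts the oxygen-dependent part of the pathway, read 9.62, 9.53 and 9.45 in induced A3, A4 and A5 and 9.52, 9.24 and 9.31 uninduced. Each clone had a higher induced value, by 0.10, 0.29 and 0.14, and the mean difference was 0.18 ± 0.09. The groups overlapped because uninduced A3, at 9.52, lay above induced A5. Pmvk, which adds the second phosphate to mevalonate, had 7.79, 8.18 and 8.27 in induced and 7.76, 8.16 and 8.06 in uninduced clones. Its difference of 0.09 ± 0.15 was smaller than the gap between clone A3 and the other clones in either condition, and turned to −0.03 without the uninduced A3 array and to −0.0053 without induced A5.

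The first enzymes of the branch differed less on the probe sets that stand for them. Hmgcs1, which joins acetyl-CoA units into HMG-CoA, differed by −0.15, 0.05 and 0.20 in A3, A4 and A5, with opposite signs. Further Hmgcs1 probe sets, with means of 11.15, 11.03 and 9.31, were each higher in induced cells of all 3 clones. Their mean differences were 0.08, 0.09 and 0.09. The later prenyl enzymes Mvk, Mvd, Idi1, Fdps and Fdft1, which lead to squalene, had mean differences between −0.0039 and 0.06. A second bright Fdft1 probe set differed by 0.12. Fdps, which makes farnesyl pyrophosphate, differed by 0.29 in A5 and by −0.07 and −0.05 in A3 and A4. Lss, the cyclase that forms lanosterol, differed by 0.21 in A4 and by −0.02 and 0.01 in A3 and A5. Tm7sf2, a sterol reductase, ran from −0.18 in A4 to 0.29 in A3. Hsd17b7, Sc5d and Dhcr7, a reductase, a desaturase and the last reductase before cholesterol, had mean differences of 0.02, 0.08 and 0.01. Dimmer Sc5d probe sets, with means of 5.80 and 4.49, differed by 0.17 and 0.24, the first with a lower induced value in A4. Further Hsd17b7 probe sets differed by −0.07 to −0.0039. Ebp, a sterol isomerase, had the lowest difference of the branch and read 9.36, 9.36 and 9.19 in induced cells and 9.37, 9.43 and 9.19 in uninduced cells. The difference was −0.03 ± 0.09, and it was positive, at 0.02 and 0.03, without uninduced A4 or induced A5. It was also the only sterol enzyme lower in all 3 clones (−0.01, −0.07 and −0.00026 for clones A3, A4 and A5).

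Counted over clones, 6 of the 17 sterol enzymes were higher in induced cells of all 3 clones, and so were 4 of the 6 regulators and 2 of the 11 fatty acid genes, against 14.1% of genes with a mean of at least 5. Lower in all 3 clones were 1 sterol enzyme, 0 regulators and 2 fatty acid genes, against 12.3%. Of 22 members with a further probe set at a mean of at least 5, 5 (Mvk, Mvd, Hsd17b7, Srebf2 and Me1) had one whose difference took the opposite sign. These counts come from the comparison in which the list was first noticed and are given without a test.

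Among the regulators, Insig1 had the highest difference over all 6 arrays. Insig1, itself a target of SREBP that holds SCAP back, read 7.95, 8.37 and 8.26 in induced A3, A4 and A5, against 7.67, 8.16 and 8.07 uninduced. Each clone was higher when induced, by 0.29, 0.21 and 0.18, while the groups overlapped, since induced A3 lay below uninduced A4 and A5. The mean difference was 0.23 ± 0.15 (limma adjusted p = 1.00, with the clone as a block 0.843). It was 0.08 without uninduced A3, below that of Srebf1 (0.12), 0.14 without induced A4 and 0.35 without induced A3. Stard4, which moves sterols between membranes, gave 7.82, 8.23 and 8.10 in induced and 7.79, 8.12 and 7.94 in uninduced clones, a difference of 0.10 ± 0.12 with overlapping groups. That difference was 0.0090 without induced A4, 0.02 without uninduced A3 and 0.18 and 0.21 without uninduced A4 or induced A3. Srebf1 read 8.83, 9.03 and 8.97 in induced and 8.89, 8.85 and 8.80 in uninduced cells. It was higher in A4 and A5 and lower in A3, with a mean difference of 0.10 ± 0.08. Insig2 and Srebf2 differed by 0.07 and 0.05, each higher in all 3 clones on the probe set that stands for it. A second Srebf2 probe set had the opposite sign, with 8.93, 9.04 and 9.09 in induced and 9.16, 9.04 and 9.34 in uninduced clones (−0.16), so that no direction is given for Srebf2. Scap had 8.83, 9.03 and 8.89 in induced cells and 9.02, 8.91 and 8.96 in uninduced cells, with a difference of −0.05 ± 0.08. Its sign was not shared by the clones (−0.19, 0.13 and −0.07 in A3, A4 and A5), and without both A3 arrays the difference was 0.03.

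In the fatty acid branch, the 3 lowest differences were those of Fasn, Acly and Acaca, none past the test. Fasn, fatty acid synthase, read 10.37, 10.33 and 10.42 in induced A3, A4 and A5, against 10.62, 10.36 and 10.59 uninduced. Each clone was lower when induced, by −0.25, −0.03 and −0.17 as induced minus uninduced, and the groups overlapped because uninduced A4 lay below induced A3 and A5. The difference was −0.15 ± 0.09 (SE, limma adjusted p = 1.00). Acly, ATP citrate lyase, which supplies acetyl-CoA in the cytosol, had 11.51, 11.59 and 11.59 in induced cells and 11.66, 11.68 and 11.65 in uninduced cells. All 3 induced arrays lay below all uninduced arrays, as was so for 3.08% of genes with a mean of at least 5, and the difference was −0.10 ± 0.07. Another Acly probe set of like brightness differed by −0.02, so the value rests on 1 of its 6 probe sets.

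Acaca, acetyl-CoA carboxylase, which makes the malonyl-CoA that Fasn uses, gave 8.62, 8.80 and 8.77 in induced and 8.78, 8.80 and 8.88 in uninduced clones. It was lower in A3 and A5, and 0.001 apart in A4, with a mean difference of −0.09 ± 0.08. Acss2 and Me1, which supply acetyl-CoA and NADPH, differed by 0.05 and 0.01, with opposite signs in different clones. A second Acss2 probe set, with a mean of 6.17, differed by 0.20, and a second Me1 probe set by −0.03. Over these 5 genes the median was −0.09, with 2 higher and 3 lower. The 6 genes of elongation, desaturation and lipid assembly had a median of 0.04. Among them Scd1 and Scd2, the stearoyl-CoA desaturases, were higher in all 3 clones on the probe sets that stand for them. In A3, A4 and A5 the differences were 0.09, 0.03 and 0.09 for Scd1 and 0.02, 0.09 and 0.06 for Scd2. Further Scd2 probe sets, with means of 9.54 and 7.80, differed by more, 0.17 and 0.29, the second with a lower induced value in A4. A second Scd1 probe set differed by 0.09, also lower in A4. The elongase Elovl6, the desaturases Fads1 and Fads2 and the phosphatidate phosphatase Lpin1 had mean differences of −0.04, −0.0014, 0.02 and 0.08, none with 1 sign in all clones. The median over the whole branch, 0.01, was −0.04 without both A4 arrays and −0.01 when all probe sets of a gene were averaged.

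**Figure D3:**
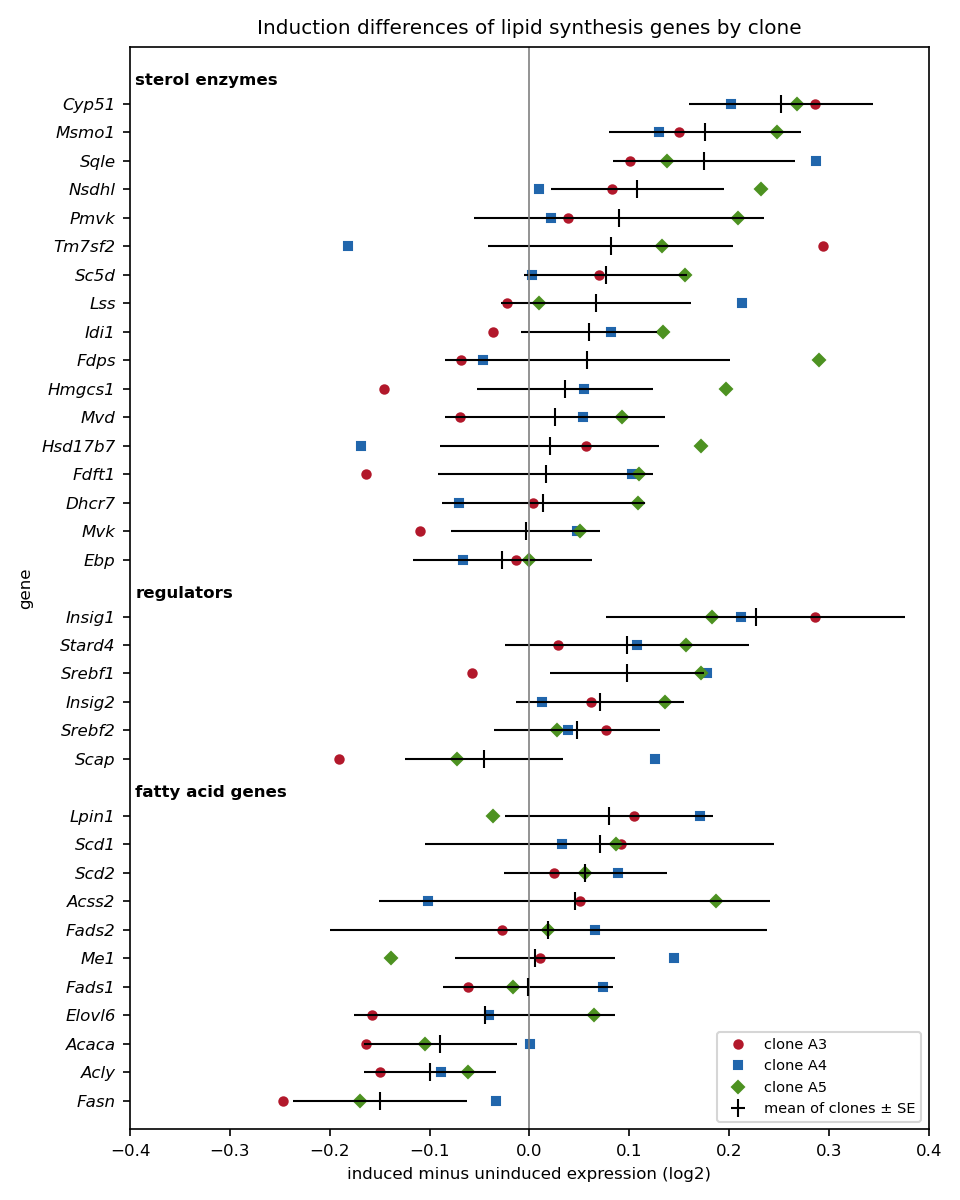
Difference between the induced and the uninduced array (log2) in each clone (A3 circles, A4 squares, A5 diamonds) for the 34 measured members, with the mean of the clones and its limma SE as a bar. Cyp51, Msmo1, Sqle and Insig1 lie to the right in all 3 clones, and Fasn and Acly to the left.

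The clones were compared next, in a contrast that the choice of the genes did not use. Most members had their lowest values in clone A3. Clone A3 had the lowest mean of the 3 clones in 30 of the 34 members (88.2%), against 41.3% of genes with a mean of at least 5. Clone A4 had the highest mean in 25 members, against 34.4%. The median of A3 minus the mean of A4 and A5 was −0.16 over the members, and the same −0.16 over the sterol enzymes and over the fatty acid genes and −0.15 over the regulators. It was −0.01 over genes with a mean of at least 5. Sqle, Ebp, Fasn and Scap were the 4 members in which A3 was not lowest. The reading of A3 against the other clones was chosen after the values were seen.

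Averaged over the 17 sterol enzymes, expression was 8.63 and 8.60 in induced and uninduced A3, against 8.82 and 8.78 in A4 and 8.79 and 8.64 in A5. Over the 11 fatty acid genes it was 8.70 and 8.75 in A3, 8.97 and 8.94 in A4, and 8.95 and 8.96 in A5. Over the 6 regulators it was 8.40 and 8.37 in A3, 8.65 and 8.54 in A4, and 8.58 and 8.48 in A5. In each branch both A3 arrays were the lowest of the 6, whether induced or not.

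Counted gene by gene, both A3 arrays lay below the other 4 in 16 of the 34 members, against 19.5% of genes with a mean of at least 5, and above them in 0, against 18.1%. The 16 were 6 sterol enzymes (Pmvk, Mvd, Lss, Hsd17b7, Sc5d and Dhcr7), 3 regulators (Insig1, Srebf2 and Stard4) and 7 fatty acid genes (Acss2, Elovl6, Scd1, Scd2, Fads1, Fads2 and Lpin1). These 7 hold all 6 genes of elongation, desaturation and lipid assembly and 1 of the 5 of fatty acid synthesis and acetyl-CoA supply. With any single array left out, the count was 16 to 23. It could not fall, since fewer arrays then had to be in that order, so this range does not test the count. On the second Srebf2 probe set the A3 arrays did not both lie below the others.

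**Figure D4:**
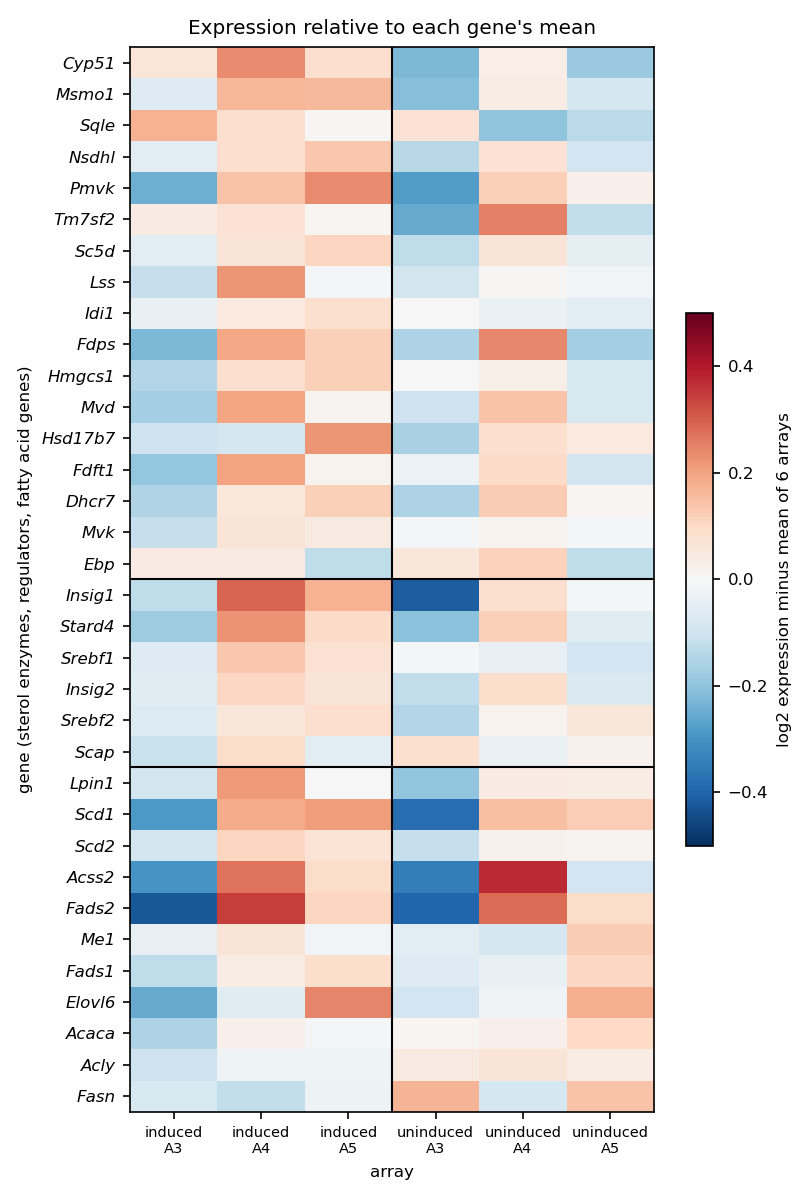
Expression of each of the 34 members on each array relative to its mean over the 6 arrays (log2, blue below and red above), with the induced arrays of A3, A4 and A5 to the left of the uninduced ones and the branches divided by lines. Both A3 columns are blue for most genes, among them Fads2, Scd1, Acss2, Insig1 and Pmvk.

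The clone term was tested in limma with induction as a second term, and it passed the threshold for 3 members, all of the fatty acid branch, and for 4.23% of genes with a mean of at least 5. Fads2, which starts the desaturation of polyunsaturated fatty acids, read 6.61 induced and 6.64 uninduced in A3, against 7.38 and 7.32 in A4 and 7.15 and 7.13 in A5. Within each clone the arrays lay within 0.07 of each other, and A3 lay 0.62 below the mean of the other clones (A3 minus others −0.62, F-test adjusted p = 0.0101). The clone means spanned 1.65-fold. A second probe set of Fads2, of like brightness, gave −0.58 (adjusted p = 0.0219) and a dimmer one −0.44 (adjusted p = 0.106).

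Scd1, which makes monounsaturated fatty acids, had 8.38 induced and 8.29 uninduced in A3, against 8.85 and 8.82 in A4 and 8.88 and 8.79 in A5. The A4 and A5 arrays overlapped and A3 lay below both, by −0.50 as A3 minus the mean of the others (adjusted p = 0.0269, 1.42-fold between the outer clone means). Its second probe set gave −0.26 (adjusted p = 0.244). Acss2, which makes acetyl-CoA from acetate, read 6.38 induced and 6.33 uninduced in A3, against 6.94 and 7.04 in A4 and 6.76 and 6.58 in A5. Here all 3 clones were apart, with A4 highest, and A3 minus the mean of the others was −0.48 (adjusted p = 0.0328, 1.56-fold). A second Acss2 probe set gave −0.57 (adjusted p = 0.0171).

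The 3 calls needed both A3 arrays. With the induced or the uninduced A3 array left out, 0 members were called, and the differences of Fads2 were −0.60 and −0.63 (adjusted p = 0.0996 and 0.0547). Without uninduced A4 only Fads2 was called, without induced A4 or induced A5 Acss2 and Fads2, without both A4 arrays Scd1 and Fads2, and without both A5 arrays these 3 and Insig1. Without both A3 arrays 0 members differed between A4 and A5 by the limma F-test. The number of calls also grew to 8 with a variance that follows the intensity, which added Pmvk, Fdps, Insig1, Stard4 and Elovl6.

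**Figure D5:**
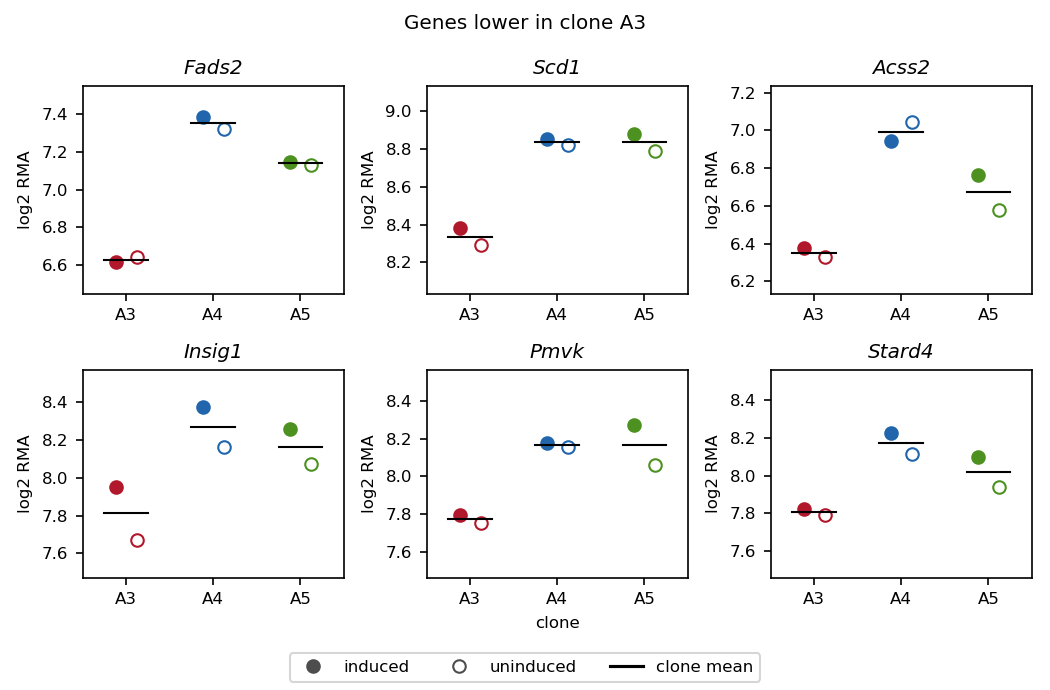
Log2 expression of 6 members by clone, with filled points for induced and open points for uninduced arrays and a bar at the clone mean, on axes of equal height. Fads2, Scd1 and Acss2 passed the clone test, while Insig1, Pmvk and Stard4 did not and show A3 below A4 and A5 as well.

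Of the members that did not pass, Insig1 was nearest. Its A3 arrays read 7.95 induced and 7.67 uninduced, against 8.37 and 8.16 in A4 and 8.26 and 8.07 in A5 (A3 minus others −0.41, adjusted p = 0.0587). Pmvk followed at 7.79 and 7.76 in A3, 8.18 and 8.16 in A4, and 8.27 and 8.06 in A5 (−0.39, adjusted p = 0.0907). Both genes thus had A3 below the other clones by more than the arrays of a clone differed from each other, without passing the threshold over all probe sets. Stard4 and Elovl6 had −0.29 and −0.26, with adjusted p of 0.149 and 0.148. Among the sterol enzymes adjusted p-values of the clone term ran from 0.0907 to 0.979. Sqle went the other way, with A3 0.18 above the mean of the others (adjusted p = 0.457).

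Averages of some controls and markers also placed both A3 arrays highest or lowest, by small margins over the nearest other array. Poly-A spikes read 6.91 induced and 6.58 uninduced in A3, against 6.06 to 6.57 on the other arrays, so that both A3 arrays were highest. The 10 ES cell markers averaged 11.81 and 11.80 in A3 and 11.82 to 11.85 elsewhere. Clone A3 had the lowest mean in 6 of the 10, against 41.3% of genes with a mean of at least 5. Fgf4, a growth factor of ES cells, went the other way and was the 1 ES cell marker past the clone test (A3 minus others 0.49, adjusted p = 0.0287). The endoderm markers averaged 4.85 and 4.89 in A3 and 4.93 to 5.11 elsewhere. The part of labelling or of cell composition in the lower values of A3 was not tested. In such bulk RNA, fewer cells of a type and less RNA per cell cannot be told apart.

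Of other genes around these pathways, listed in 6 groups, 82 of 96 were measured, and their values were described in the same way. By induction 0 of the 82 were called by limma, with or without the clone as a block. Among 12 measured enzymes of other isoprenoid and sterol steps, the median induction difference was −0.0056. Ggps1, which makes geranylgeranyl pyrophosphate, differed by 0.11 ± 0.11, Pdss2, which makes the tail of coenzyme Q, by 0.10 ± 0.10, and the farnesyltransferase subunit Fntb by −0.07 ± 0.13. The 9 measured genes of SREBP processing and turnover had a median of −0.03, with the ubiquitin ligase genes Rnf139 and Fbxw7 at −0.07 ± 0.08 and −0.05 ± 0.08 and the segregase gene Vcp at −0.04 ± 0.07.

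Sterol uptake, transport and storage had a median of 0.01 over 10 genes. Apoe, a lipoprotein component, read 11.39, 10.87 and 10.99 in induced A3, A4 and A5, against 11.04, 11.00 and 10.77 uninduced, a difference of 0.15 ± 0.14 with overlapping groups. Stard3 and Npc2, both of the late endosome, each differed by 0.06. The 9 measured genes of the LXR receptors and sterol export, which answer to surplus sterol, had a median of −0.03. Of these the LXR partner Rxra differed by −0.13 ± 0.09, the transporter Abca7 by −0.06 ± 0.10 and the ubiquitin ligase Mylip by −0.04 ± 0.08.

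Among 23 other genes of fatty acid and glycerolipid synthesis the median was 0.02. Elovl2, an elongase of polyunsaturated fatty acids, read 5.39, 5.30 and 5.32 in induced A3, A4 and A5, all above 5.09, 5.05 and 5.29 uninduced (0.19 ± 0.08). Thrsp, a lipogenic protein of liver and fat, read 5.69, 5.82 and 5.70 in induced clones, all below 5.83, 5.89 and 5.92 uninduced (−0.14 ± 0.07). These are the genes of the group whose conditions did not overlap, and they had opposite directions. Of the 23 genes 1 thus lay above and 1 below, near the 3.04% and 3.08% of genes with a mean of at least 5. Acsl4, an acyl-CoA synthetase, differed by 0.13 ± 0.13. The 19 measured genes of fatty acid oxidation had a median of 0.02, with Hadhb at 0.13 ± 0.08, the carnitine carrier Slc25a20 at 0.10 ± 0.15 and Acadvl at −0.05 ± 0.07.

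Between clones, A3 lay below the other 4 arrays on both of its own in 2 of the 12 isoprenoid genes and above them in 3. The corresponding counts were 3 and 0 of 9 for SREBP processing, 4 and 5 of 10 for uptake and storage, 3 and 1 of 9 for the LXR group, 10 and 3 of 23 for other fatty acid synthesis and 6 and 4 of 19 for oxidation. Lists other than SREBP processing thus held genes on both sides, whereas the 34 members had 16 below and 0 above. The share below was 47.1% of the members, and 35.3% of the sterol enzymes, 50% of the regulators and 63.6% of the fatty acid genes. In the other lists it ran from 16.7% for the isoprenoid genes to 43.5% for other fatty acid synthesis. Of the markers, those of endoderm had 4 below and 0 above, those of adipocytes and hepatocytes 2 and 0, and those of ES cells 4 and 2. The clone test called 1 of the 12 isoprenoid genes, 1 of the 10 of uptake and storage and 0 in each remaining pathway list. Among genes with a mean of at least 5 it called 4.23%, so these calls do not mark the lists. Coq2, of coenzyme Q synthesis, passed the clone test at 8.62 induced and 8.69 uninduced in A3, against 9.22 and 9.08 in A4 and 9.09 and 9.14 in A5 (adjusted p = 0.0463). Scarb1, the receptor for high-density lipoprotein, did so at 7.75 and 7.83 in A3, against 8.21 and 8.22 in A4 and 8.37 and 8.23 in A5 (adjusted p = 0.0475).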

How the data were processed

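Biotin-labelled RNA of 6 ES cell cultures had been hybridized to Affymetrix Mouse Genome 430 2.0 arrays. The deposited values are log2 expression, 1 per probe set, which the authors made by RMA in the affy package (versions not given in the sources used here), with quantile normalization between arrays. Of 45101 probe sets, 64 controls were set aside and 45037 were tested, 34945 of them with 1 gene symbol, 932 with several and 9160 with none in the platform annotation. Each gene was represented by its brightest probe set, averaged across all 6 arrays. Members, lists and comparisons were chosen with earlier results of these data known.

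Groups and clones came from the sample labels. Induced and uninduced arrays were compared in limma 3.58.1 (R 4.3.3) without a pairing term, since the methods name a t-test and no pairing. Clones were compared by an F-test with induction as a term, both with eBayes and Benjamini-Hochberg adjustment at 0.05. Both fits were also run on simulated arrays, whose noise was independent between arrays. The induction differences put into them were larger than that of any member, so this run does not check differences of the members' size. Same-numbered arrays share a clone, and their deviations from the group means correlated at 0.52, 0.38 and 0.21 in A3, A4 and A5. Values in every array are given for the 5 sterol enzymes, 3 fatty acid genes and 3 regulators with the largest mean difference, the lowest gene of each branch and those past the clone threshold. The rule for other lists took up to 3 genes with a mean of at least 5. The number of arrays limits the precision, and p-values measure the spread among the 3 arrays of a condition or, for the clone test, between the 2 arrays of a clone after the induction term. Promoter windows are from RefSeq, GRCm38.p6.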

Additional observations from a re-analysis of the deposited data

Results flagged for a closer look

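The median induction difference of the fatty acid genes took opposite signs in the clones, at −0.0274 in A3 and −0.0163 in A5 but 0.0322 in A4. Each clone gave 1 pair of arrays, so this difference between clones was not tested. Control spikes, which carry no cell RNA, differed between the conditions: the poly-A spikes averaged 0.308 higher and the hybridisation spikes 0.0823 higher on the induced arrays, as the mean of the 3 clones. The part of these controls in the values of the lipid genes was not tested.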

How the results depend on the processing

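Of 356 values recomputed under other settings, 321 kept their direction and side of the threshold or stayed near the first value. Of the others, 12 reversed their sign, 12 moved away from the first value and 11 no longer passed the threshold. Settings that change only the test reuse the same differences, so their direction could not change. The count of members called for induction was 0 in each, including limma with a replicate block, the methods' t-test, the paired t-test and every fit with an array left out. The replicate block changed no call. The count of members past the clone threshold, 3, was 8 with an intensity trend, 6 after leaving out probe sets whose mean was under 5, 5 with the mean of all probe sets of a gene, 0 without both A3 arrays, and 0 to 3 with 1 array left out. The fatty acid median, 0.0059, was −0.0131 with the mean of all probe sets and −0.0389 without both A4 arrays, and −0.102 to 0.0699 with 1 array left out. The gap between the branches, 0.054, was 0.150 without both A4 arrays and −0.0032 to 0.124 with 1 array left out. Leaving out 1 array gave 0.0231 to 0.136 for the regulators' median and 0.0061 to 0.118 for the sterol median. For single genes, such fits gave 0.113 to 0.252 for Msmo1, 0.118 to 0.255 for Sqle, 0.0655 to 0.172 for Nsdhl, −0.232 to −0.102 for Fasn, −0.124 to −0.0343 for Acaca, −0.0285 to 0.233 for Pmvk and −0.0981 to 0.0306 for Ebp, and Scap was 0.0268 without both A3 arrays. The settings that leave out both arrays of a clone were added after seeing the data. With 2 arrays per clone and 3 per condition, small differences were not detectable. The cause of these changes was not tested.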
